A study of Homo sapiens with 17 samples.

Results

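ERVL elements are endogenous retroviruses of class III, counted here as 161661 of the 4748242 annotated repeat loci and as 124 of 1261 repeat subfamilies (distinct by class and name, 1258 by name alone). Members were all repeat loci whose class and family label read LTR/ERVL exactly, so the related ERVL-MaLR family was left out, and the rule itself uses no measured value. The subfamilies fell into 19 internal ones, which hold the remains of the viral genes, and 105 long terminal repeat (LTR) ones. Reads were counted in 17 libraries of poly(A)-selected RNA from IMR90 ER:RAS cells, a human lung fibroblast line that carries a retroviral construct for RAS fused to an oestrogen receptor domain. Addition of 4-hydroxytamoxifen (4OHT) switches the fusion protein on and drives the cells into oncogene-induced senescence, and DMSO is the vehicle. All cells were transfected with siRNA and all RNA was taken at day 7. The groups were DMSO with non-targeting siRNA (DMSO siNT, n = 5 libraries), 4OHT with non-targeting siRNA (4OHT siNT, n = 6) and 4OHT with siRNA against SMARCA4 (4OHT siSMARCA4, n = 6). No group combined DMSO with siSMARCA4, so the effect of the siRNA without 4OHT was not measured. Sample names carry a number (2 or 4) after the name of the siRNA, called the siRNA number here. A number shared by siNT and siSMARCA4 does not mean a shared siRNA, and whether it marks a batch is not given. Names also carry a tag, V or VM, whose meaning is not given in the sources used here. All 6 libraries of 4OHT siNT carry VM against 3 of the 5 in DMSO siNT and 3 of the 6 in 4OHT siSMARCA4. The labels do not say that libraries came from separate cultures, so p-values measure the spread between these libraries.

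A provirus consists of an internal region with viral genes such as gag and pol between a pair of LTRs, which carry the promoter and the polyadenylation signal. Recombination between the LTRs leaves a solitary LTR, and most human copies are of that kind. ERVL elements are old, widely shared among mammals and mostly unable to make protein. The HERVL family with its MLT2A1 and MLT2A2 LTRs is known for its activity in the early embryo, where the transcription factor DUX4 switches it on. SMARCA4 (BRG1) is an ATPase of the SWI/SNF complexes, which move nucleosomes and open chromatin at promoters and enhancers.

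The LTR sequences beside the loci described most below are shown first, since transcription of a provirus would start in its 5′ LTR. Each is the central 300 bases of the element on the plus strand of GRCh38 (hg38), 5′ to 3′, and capitals mark every match to TGANTCA, a pattern that takes in the binding sequence of AP-1. The first pair flanks the HERVL18-int copy of chromosome 1 (LTR18C, chr1:117815348-117815647 and chr1:117821697-117821996), and the second pair flanks the copy in an intron of MBD5 (LTR18A, chr2:148253664-148253963 and chr2:148259564-148259863).
LTR18C chr1 left: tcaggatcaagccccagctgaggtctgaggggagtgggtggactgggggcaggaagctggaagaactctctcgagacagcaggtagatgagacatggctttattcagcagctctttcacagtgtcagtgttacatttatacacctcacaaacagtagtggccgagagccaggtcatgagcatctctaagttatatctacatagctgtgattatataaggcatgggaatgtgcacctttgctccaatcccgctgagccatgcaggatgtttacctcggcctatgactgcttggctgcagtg
LTR18C chr1 right: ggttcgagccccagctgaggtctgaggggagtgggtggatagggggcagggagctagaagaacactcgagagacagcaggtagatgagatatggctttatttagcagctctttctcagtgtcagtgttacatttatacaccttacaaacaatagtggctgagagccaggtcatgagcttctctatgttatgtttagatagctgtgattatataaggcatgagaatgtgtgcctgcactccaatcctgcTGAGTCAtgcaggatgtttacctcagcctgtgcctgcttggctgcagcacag
LTR18A chr2 left: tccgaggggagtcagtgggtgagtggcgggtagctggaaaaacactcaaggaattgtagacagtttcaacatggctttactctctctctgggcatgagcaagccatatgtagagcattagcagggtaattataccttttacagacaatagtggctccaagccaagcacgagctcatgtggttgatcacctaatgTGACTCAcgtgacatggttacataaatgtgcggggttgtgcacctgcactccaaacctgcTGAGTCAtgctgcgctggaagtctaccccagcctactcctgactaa
LTR18A chr2 right: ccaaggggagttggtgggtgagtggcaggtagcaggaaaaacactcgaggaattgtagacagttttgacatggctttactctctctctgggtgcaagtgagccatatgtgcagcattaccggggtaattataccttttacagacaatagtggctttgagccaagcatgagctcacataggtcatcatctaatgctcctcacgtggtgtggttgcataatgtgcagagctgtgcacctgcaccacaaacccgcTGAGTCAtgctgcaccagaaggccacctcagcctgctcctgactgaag

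TGANTCA was found 1 time in the right LTR18C, 2 times in the left LTR18A and 1 time in the right LTR18A, and 0 times in the left LTR18C. Both strands were searched, and the pattern reads the same on either strand. In the central 300 bases, 13.3% of the 98631 ERVL loci of that length or longer held it. The share was 70.4% of 162 LTR18A copies, 51.7% of 58 LTR18C copies, 7.83% of 281 LTR18B copies and 60.0% of 2310 MLT2A1 copies. A pattern for DUX4, TAANNNAATCA, which can overlap the first, was held by 1.46% of the ERVL loci and by none of the printed windows. The LTRs of the chromosome 1 copy were 89.4% identical over 312 aligned columns and those of the MBD5 copy 84.6% over 337. The internal regions of these copies were 75.0% identical over 5435 columns. These are matches of letters, and no binding was measured. The orientation of the copies was not determined. Left and right are therefore positions on the plus strand and do not mark which LTR would start transcription.

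Most ERVL loci had no count, as did most repeat loci: 26744 ERVL loci and 996593 of all 4748242 repeat loci had counts. Of the 161661 loci, 134917 (83.5%) had no count in any library, 2747 had 10 or more over all libraries, and 272 loci of 79 subfamilies were expressed enough to be tested. The tested loci held 49.8% of the 243918 ERVL counts, and the 10 loci with the most counts held 12.05%. Exons of annotated genes held 3.97% of the loci and 24.7% of the counts, introns 44.01% and 44.6%, and sequence outside genes 52.03% and 30.8%. At the subfamily level 106 of 124 were tested (18 of 19 internal, 88 of 105 LTR), and in 12 subfamilies over 50% of the counts lay on 1 locus. Reads in introns and exons can come from the gene that holds the element where both lie on the same strand, since reads were counted by strand. The repeat entries name no strand, so such loci were not told apart from the others.

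Library totals ran from 39109479 to 68978119 counts, of which repeats took 1.35 to 1.93%. SMARCA4 itself was at a mean of 268 CPM (counts scaled to a library of 1000000) in 4OHT siNT and 88.0 CPM in 4OHT siSMARCA4 (log2 fold change -1.61, adjusted p = 5.14e-07, edgeR), with no overlap of libraries. Counts on 38843 sparse loci of other repeat families, over 50000 bp from any gene, summed to 82.6 to 203 CPM in 4OHT siSMARCA4, 48.2 to 87.6 in 4OHT siNT and 55.8 to 127 in DMSO siNT. All 8 fibroblast markers were tested, and 7 of them fell in both contrasts while VIM did not pass. Their summed level ran from 24186 to 28998 CPM in DMSO siNT, 13051 to 16556 in 4OHT siNT and 7459 to 10635 in 4OHT siSMARCA4. The summed level of 3 endothelial markers was 0.842 to 1.94 CPM in DMSO siNT, 3.44 to 5.25 in 4OHT siNT and 1.72 to 4.20 in 4OHT siSMARCA4. That of 4 epithelial markers, with KRT5 at 0 in every library, was 18.3 to 21.1, 11.01 to 13.5 and 8.63 to 11.97 CPM, and that of 3 blood markers 21.6 to 26.8, 21.6 to 28.5 and 20.3 to 30.3 CPM. KRT8 made up most of the epithelial sum (means 17.7, 12.5 and 9.53 CPM), and CDH1 had 22 counts in all. CD68 made up most of the blood sum (means 22.5, 25.9 and 25.1 CPM), with PTPRC at 50 counts and CD3E at 1 in all. The part of these levels in the ERVL results was not tested, and in bulk RNA fewer cells of a type cannot be told apart from less RNA per cell.

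The sum of all ERVL counts did not pass in either contrast. It was 248 ± 38.6 CPM in DMSO siNT (SD, n = 5), 273 ± 32.2 in 4OHT siNT (n = 6) and 288 ± 25.5 in 4OHT siSMARCA4 (n = 6). The difference was 25.0 CPM for 4OHT against DMSO (adjusted p = 0.377) and 15.1 CPM for siSMARCA4 against siNT (adjusted p = 0.377), both by a two-sided exact permutation test. Here and below, p-values of a sum or share were adjusted over these contrasts only, not over the several sums and shares tried. With TMM-scaled library sizes these were 45.0 CPM (adjusted p = 0.113, exact permutation test) and 7.84 CPM (adjusted p = 0.647). Without 1 library the first ran from 15.7 (DMSO siNT 4-3VM) to 38.5 CPM (DMSO siNT 2-2V) and the second from 7.87 (4OHT siNT 2-2VM) to 24.1 CPM (4OHT siSMARCA4 4-2VM), and neither passed. By siRNA number the difference for 4OHT against DMSO changed sign, at -8.13 CPM for number 2 and 69.8 CPM for number 4, in groups of 2 or 3 libraries that are too small for an exact permutation test to pass. The V libraries of DMSO siNT all carry number 2, so number and tag are mixed in this split. Loci outside genes gave 71.4 ± 7.71 CPM in DMSO siNT and 86.8 ± 6.81 CPM in 4OHT siNT, a difference of 15.4 (adjusted p = 0.0173, exact permutation test), though the libraries overlapped. Of this difference 11.045 CPM lay on the HERVL18-int copy of chromosome 1 described below, and without that copy it was 4.40 CPM and did not pass (adjusted p = 0.299, exact permutation test). For siSMARCA4 against siNT the differences outside genes were 3.63 CPM (adjusted p = 0.543, exact permutation test) and, without that copy, 10.5 CPM (adjusted p = 0.0649). The 10 loci with the most counts summed to 24.9 ± 2.59 CPM in DMSO siNT, 39.1 ± 2.87 in 4OHT siNT and 33.2 ± 5.98 in 4OHT siSMARCA4. The rise under 4OHT of 14.2 CPM passed (adjusted p = 0.00866, exact permutation test, no overlap), and the difference of -5.87 CPM after siSMARCA4 did not (adjusted p = 0.0584). These loci were picked by their counts over all libraries, the highest group included, and the same HERVL18-int copy carried 11.045 CPM of the rise and -6.84 CPM of the difference after siSMARCA4. Without it the differences were 3.20 CPM (adjusted p = 0.0779) and 0.963 CPM (adjusted p = 0.532), and neither passed in the exact permutation test. The sums without that copy were added after the data were seen. As a share of all repeat counts, ERVL went from 1.60% in DMSO siNT to 1.88% in 4OHT siNT and 1.66% in 4OHT siSMARCA4. Both differences in share passed, 0.277 percentage points under 4OHT and -0.222 after siSMARCA4 (adjusted p = 0.0390 for each, two-sided exact permutation test), with overlap of libraries in each. The sign for siSMARCA4 against siNT therefore depended on the denominator.

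**Figure D1:**
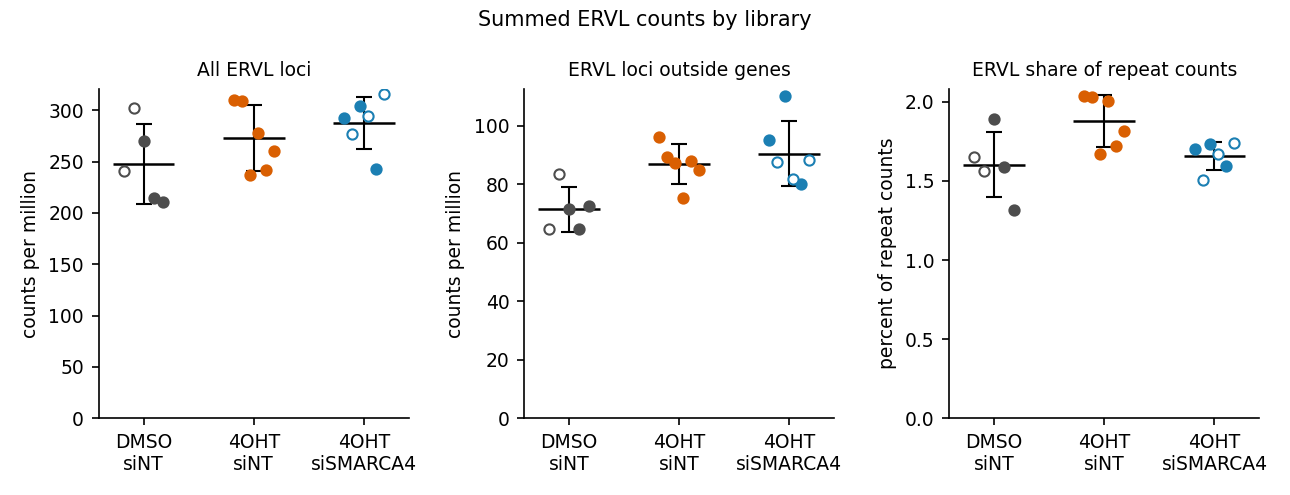
Summed ERVL counts per library as CPM over all ERVL loci (left), as CPM over loci outside genes (middle) and as percent of all repeat counts (right), in the 3 groups. Each point is a library (filled, VM; open, V), and bars give the mean ± SD; all libraries lie between 211 and 315 CPM on the left.

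Under 4OHT the internal regions HERVL18-int and HERV16-int and 11 LTR subfamilies rose, while LTR47B3, LTR16D and LTR52-int fell. Of 106 subfamilies tested, 15 rose and 5 fell (edgeR quasi-likelihood test, adjusted p under 0.05 over all repeat subfamilies), where 16.9% of all 1026 repeat subfamilies passed (104 rose and 69 fell). The median log2 fold change was 0.18 for ERVL and 0.05 for all repeat subfamilies. The LTR subfamilies that rose had from 152 to 5399 annotated loci. Among the larger ones, named after their values were seen, were LTR79 with 5399 loci (0.39 ± 0.11, adjusted p = 0.0184, edgeR), LTR16A with 4050 loci (0.77 ± 0.15, adjusted p = 0.000924, edgeR) and LTR16A1 with 2696 loci (0.59 ± 0.16, adjusted p = 0.0151). Only 562 LTR16A loci and 387 LTR16A1 loci had counts, and the top locus held 9.78% and 13.2% of them. A pair of LTR79 copies in exons of CD59, described below, were among the ERVL loci with the most counts. Whether these rises were spread over many copies was not tested. By kind, 4 internal subfamilies rose and 1 fell of 18, and 11 LTR subfamilies rose and 4 fell of 88. The largest rises by the naming rule were MER54B (2.16 ± 0.39 SE), LTR75B (2.11 ± 0.44), HERVL18-int (2.07 ± 0.24), HERV16-int (1.10 ± 0.13) and MER70B (0.99 ± 0.33), of which the last was lost in 18 of the alternatives. The largest falls were LTR47B3 (-2.08 ± 0.52), LTR16D (-1.23 ± 0.20), LTR52-int (-1.22 ± 0.27), LTR47A (-0.70 ± 0.19) and MER21A (-0.38 ± 0.10).

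HERV16-int, the internal part of another old ERVL family, was at 1.83, 2.01, 2.03, 1.82 and 2.18 CPM in the DMSO siNT libraries. In 4OHT siNT it ran from 3.35 to 5.19 CPM (median 4.24) and in 4OHT siSMARCA4 from 3.15 to 4.39 (median 3.72). Both 4OHT groups lay wholly above DMSO. LTR16D ran from 2.21 to 3.43 CPM in DMSO siNT, 0.908 to 1.67 in 4OHT siNT and 0.986 to 2.29 in 4OHT siSMARCA4, and 64.5% of its counts lay on 1 copy in an intron of SPAG6 (chr10:22435411-22435950). Of the LTR52-int counts 54.3% lay on 1 copy that overlaps the pseudogene RBMXP2 (chr9:30688610-30692283), which had a log2 fold change of -1.04 ± 0.35 under 4OHT (adjusted p = 0.0298, edgeR, lost in 11 of the alternatives). HERVL-int rose by less, from 5.62 to 8.06 CPM in DMSO siNT to 7.84 to 10.6 CPM in 4OHT siNT (log2 fold change 0.45 ± 0.12, adjusted p = 0.0116, edgeR). The calls of HERVL-int, LTR52-int and MER21A under 4OHT were lost in fits of either siRNA number alone.

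None of the subfamilies tied to the embryonic programme other than HERVL-int passed. MLT2A1 ran from 1.97 to 3.07 CPM in DMSO siNT, 2.22 to 3.12 in 4OHT siNT and 1.95 to 3.72 in 4OHT siSMARCA4, with a log2 fold change of 0.14 ± 0.17 under 4OHT (adjusted p = 0.651) and -0.04 ± 0.16 after siSMARCA4 (adjusted p = 0.901). MLT2A2 was at 0.55 ± 0.21 (adjusted p = 0.0923) and 0.05 ± 0.20 (adjusted p = 0.884) in the same contrasts, and ERVL-int at 0.26 ± 0.26 (adjusted p = 0.554) and 0.60 ± 0.24 (adjusted p = 0.0824). The LTRs of HERVL18 were low throughout, and none passed in either contrast. Under 4OHT the log2 fold change was 1.39 ± 0.54 for LTR18A (adjusted p = 0.0946), 0.91 ± 0.33 for LTR18B (adjusted p = 0.0644) and 0.94 ± 0.35 for LTR18C (adjusted p = 0.0750).

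After siSMARCA4 in 4OHT, 6 LTR subfamilies rose and HERVL18-int alone fell among the 106 tested, where 20.4% of all 1026 repeat subfamilies passed (199 rose and 10 fell). At an unadjusted p under 0.05 there were 20, against 33.9% of all repeat subfamilies. The median log2 fold change was 0.14 for ERVL and 0.25 for all repeat subfamilies. The rises were LTR86B2 (1.16 ± 0.33 SE), LTR55 (0.94 ± 0.29), LTR62 (0.56 ± 0.19), LTR40a (0.43 ± 0.14), MER21A (0.31 ± 0.10) and MER21B (0.31 ± 0.11), and in each the libraries of the groups overlapped. All 6 calls were lost with siRNA number 2 alone, with the tag as a covariate and with the sparse counts far from genes as a covariate, and all 4OHT siNT libraries carry the tag VM. Over all repeat subfamilies the 209 calls became 12, 59 and 3 in these fits. The sparse counts are repeat counts themselves. They barely overlap between 4OHT siSMARCA4 (82.6 to 203 CPM) and 4OHT siNT (48.2 to 87.6 CPM). The fit with them, here and below, can therefore hardly separate them from the effect of the group. With the scale set by repeats alone (TMM from repeats in place of genes and repeats), the median of ERVL subfamilies shifted by -0.23 to -0.08, and 0 subfamilies rose and 2 fell, against 1.27% and 1.46% of all repeat subfamilies. Relative to other repeats, the rises were therefore not called. Without 1 library the 7 calls stayed at 7 or became 8 (4OHT siSMARCA4 4-3V or DMSO siNT 2-1V, 2-2V or 4-2VM), 6 (4OHT siNT 4-1VM) or 5 (4OHT siNT 2-1VM or 2-2VM). They moved further to 1 (4OHT siNT 4-2VM), 2 (4OHT siNT 4-3VM or 4OHT siSMARCA4 4-2V), 3 (4OHT siSMARCA4 2-3V or 2-3VM), 4 (4OHT siNT 2-3VM or 4OHT siSMARCA4 2-1VM) or 11 (4OHT siSMARCA4 4-2VM). Over all repeat subfamilies the 209 calls became 127 to 271 without 1 library.

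Against DMSO siNT, 4OHT siSMARCA4 had 25 subfamilies higher and 4 lower of 106, where 34.5% of all repeat subfamilies passed (312 higher and 42 lower), with a median of 0.29 (0.32 over all). With the scale from repeats the split was 5 higher and 7 lower, against 7.31% and 7.8% of all repeat subfamilies, and for 4OHT against DMSO in siNT it was 12 and 7, against 7.89% and 9.94%. This comparison and the one of 4OHT siNT use the same DMSO libraries, so their values are not independent.

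**Figure D2:**
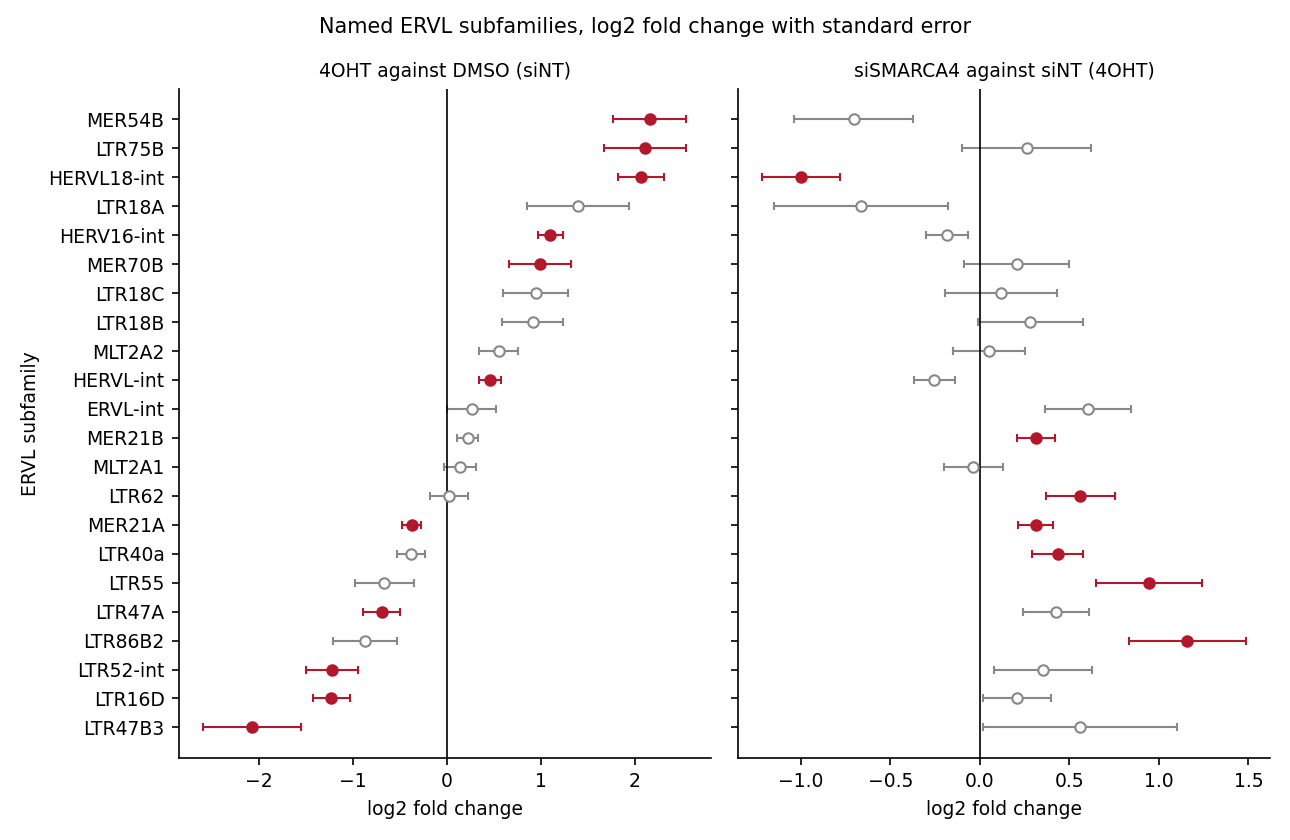
Log2 fold change of the 22 named ERVL subfamilies for 4OHT against DMSO in siNT (left) and siSMARCA4 against siNT in 4OHT (right), with the standard error as bars. Filled red points passed an adjusted p under 0.05 and open grey points did not; HERVL18-int is at 2.07 on the left and -0.998 on the right.

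HERVL18-int was the one ERVL subfamily called in both contrasts with no overlap of libraries in either. The contrasts share the 4OHT siNT libraries with opposite sign, so a rise and a fall of the same member are not independent, here and elsewhere. In counts, not scaled by length, its mean of 17.3 CPM in 4OHT siNT was above that of ERVL-E-int (15.5 CPM), but it was below ERVL-E-int in DMSO siNT (4.12 against 13.6 CPM) and in 4OHT siSMARCA4 (8.67 against 17.4 CPM). Its libraries were at 3.05, 3.402, 5.08, 4.76 and 4.33 CPM in DMSO siNT, 15.4 to 20.1 CPM in 4OHT siNT (median 16.7), and 12.05, 5.61, 12.4, 4.27, 10.8 and 6.90 CPM in 4OHT siSMARCA4. The 3 groups were ordered DMSO siNT, 4OHT siSMARCA4 and 4OHT siNT, and 4OHT siNT overlapped with neither other group. The log2 fold change was -0.998 ± 0.22 (SE) for siSMARCA4 against siNT (adjusted p = 0.00700, edgeR) and 1.07 ± 0.24 for 4OHT siSMARCA4 against DMSO siNT (adjusted p = 0.00221). The fall after siSMARCA4 was not called with siRNA number 2 alone (-0.87, adjusted p = 0.0942) or with the sparse counts far from genes as a covariate (-1.12, adjusted p = 0.136), and it was -0.54 with VM libraries alone and -0.66 with the tag as a covariate. Among the 212 HERVL18-int loci, 70 had counts, and of the 27 loci of 4500 bp or more, 18 had counts. Over all libraries 91.8% of the counts were on the copy of chromosome 1. Without that copy the log2 fold change of the subfamily was 2.68 under 4OHT (adjusted p = 1.43e-06, edgeR) and -2.02 after siSMARCA4 (adjusted p = 0.000125), a sum to which the copy in MBD5, described below, gave 315 counts.

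That copy (chr1:117815666-117821683, 6018 bp) lies outside annotated genes, 37160 bp from the pseudogene PNRC2P1. In DMSO siNT it was at 3.02, 3.14, 5.01, 4.71 and 4.29 CPM, in 4OHT siNT at 13.9 to 17.3 CPM (median 14.8), and in 4OHT siSMARCA4 at 11.7, 5.02, 11.7, 3.78, 10.5 and 6.18 CPM. All 4OHT siNT libraries lay above all others, and 1 library of 4OHT siSMARCA4 (4-2V) lay within the range of DMSO. It rose under 4OHT by 1.91 ± 0.25 on the log2 scale (adjusted p = 1.36e-05, edgeR). After siSMARCA4 it was lower by a log2 fold change of -0.90 ± 0.23 (adjusted p = 0.0280). Per kilobase of the element, the level was 0.670 CPM in DMSO siNT, 2.53 in 4OHT siNT and 1.35 in 4OHT siSMARCA4.

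The tag of the library moved with the level of this copy. The V libraries of 4OHT siSMARCA4 were at 3.78 to 6.18 CPM and the VM libraries at 10.5 to 11.7 CPM, and in DMSO siNT the V libraries were at 3.02 and 3.14 and the VM libraries at 4.29 to 5.01. With VM libraries alone, the log2 fold change after siSMARCA4 was -0.43 (adjusted p = 0.0289, edgeR), and with the tag as a covariate it was -0.55 (adjusted p = 0.0254). The call was lost with only siRNA number 2 (-0.78, adjusted p = 0.176) or only number 4 (-1.06, adjusted p = 0.233), with the sparse counts far from genes as a covariate (-1.01, adjusted p = 0.198), and without 4OHT siNT 2-1VM (-0.89, adjusted p = 0.0582) or 4OHT siSMARCA4 2-3V (-0.81, adjusted p = 0.0617).

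The surroundings of this copy changed less. The LTR18C to its left (chr1:117815334-117815662) had 32 counts in DMSO siNT, 84 in 4OHT siNT and 99 in 4OHT siSMARCA4, with a log2 fold change of 1.21 ± 0.41 under 4OHT (adjusted p = 0.0348, edgeR, lost in 11 of the alternatives) and 0.13 ± 0.36 after siSMARCA4 (adjusted p = 0.881). The LTR18C to its right had 9, 13 and 16 counts. GDAP2, the only tested gene within 100000 bp, had log2 fold changes of 0.41 ± 0.08 under 4OHT and 0.07 ± 0.07 after siSMARCA4. Over the 17 libraries, the genes whose log2 CPM was most like that of the copy were SNAI1 (Pearson r = 0.936), a repressor of epithelial genes, ABTB2 (0.929), PDXDC1 (0.922), ZNF225-AS1 (0.916) and OXA1L-DT (0.913). These correlations share the libraries and their groups, and were picked as the highest of all genes.

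**Figure D3:**
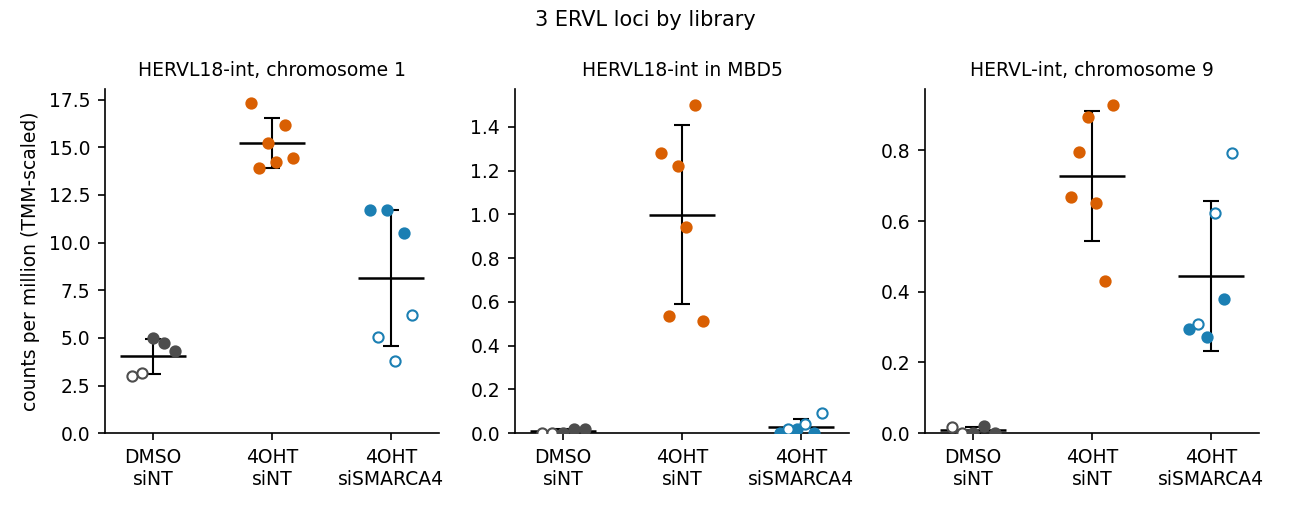
Level of 3 ERVL loci in CPM scaled by TMM, in the 3 groups. Each point is a library (filled, VM; open, V), and bars give the mean ± SD; the HERVL18-int copy of chromosome 1 is at 13.9 to 17.3 CPM in 4OHT siNT, and the copy in MBD5 is near 0 in both other groups.

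The copy of HERVL18-int in MBD5 had nearly all of its counts in 4OHT siNT. It (chr2:148253986-148259530, 5545 bp) lies in an intron of MBD5, a gene for a protein with a methyl-CpG binding domain. It had 2 counts over the DMSO siNT libraries, 303 over 4OHT siNT and 10 over 4OHT siSMARCA4. The 4OHT siNT libraries were at 1.28, 0.538, 1.22, 0.942, 1.498 and 0.511 CPM, and no library of another group exceeded 0.0942 CPM. Against DMSO the ratio of counts was 140-fold (exact 95% interval 38.3 to 1158, which covers counting error only, as do all intervals and floors here). After siSMARCA4 the log2 fold change was -4.95 ± 0.53 (adjusted p = 6.60e-05, edgeR), and 4OHT siSMARCA4 against DMSO siNT did not pass (1.71 ± 0.96, adjusted p = 0.197). This copy entered the test only through 4OHT siNT, the group where it was high, so the tests are not independent of that choice.

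MBD5 itself had log2 fold changes of -0.02 under 4OHT (adjusted p = 0.910, edgeR) and -0.16 after siSMARCA4 (adjusted p = 0.225). The LTR18A to the left of the copy had 1, 40 and 3 counts in DMSO siNT, 4OHT siNT and 4OHT siSMARCA4, and the LTR to its right 0 in each. By siRNA number the log2 fold change after siSMARCA4 was -6.47 for number 2 (adjusted p = 0.000323) and -3.78 for number 4 (adjusted p = 0.0153). The difference between numbers was -2.69 (adjusted p = 0.738), so it was not shown to differ. In a fit of the number 4 libraries alone, the value was -3.77 and did not pass (adjusted p = 0.132).

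The remaining HERVL18-int copies had 73 counts in DMSO siNT, 218 in 4OHT siNT and 131 in 4OHT siSMARCA4. The copy at chr4:77630872-77636836 had 12, 66 and 7 counts, and the one at chr2:169712250-169717187 had 0, 40 and 24. Both were chosen after their values were seen. Their internal regions were 82.8% and 76.8% identical to that of chromosome 1.

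At single loci, most calls under 4OHT were rises, as they were over all repeat loci. Of 272 loci tested, 64 rose and 22 fell (edgeR, adjusted p under 0.05 over all repeat loci), where 27.4% of all 13026 repeat loci passed (2361 rose and 1214 fell). The median log2 fold change was 0.31 for ERVL and 0.16 for all repeat loci. In introns 36 rose and 8 fell of 124, outside genes 24 and 9 of 66, and in exons 4 and 5 of 82. Over all repeat loci the counts were 1602 and 655 of 8059 in introns, 487 and 337 of 2107 outside genes and 272 and 222 of 2860 in exons. Internal regions gave 24 rises and 7 falls of 67 and LTRs 40 and 15 of 205. With the scale from repeats the median shifted by -0.18, and 54 rose and 26 fell, against 14.9% and 11.7% of all repeat loci. In 46 of the rises and 15 of the falls the libraries did not overlap, where 11.6% of all repeat loci rose and 5.67% fell without overlap.

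Several loci had next to no counts in DMSO siNT and so entered the test only through 4OHT libraries, where they were high. On chromosome 9 a HERVL-int copy (chr9:72486938-72488073) and the MLT2A1 copy next to it (chr9:72488074-72488574) rose together, outside genes. The HERVL-int copy had 2 counts in DMSO siNT, 227 in 4OHT siNT and 150 in 4OHT siSMARCA4, a ratio of 105-fold against DMSO (exact 95% interval 28.6 to 869). The MLT2A1 copy had 0, 77 and 65 counts, at least 23.7-fold higher in 4OHT siNT than the floor of 3 counts over the DMSO group that a count of 0 allows. Repeats of other families on the HERVL-int side also had next to no counts in DMSO siNT, among them an MLT1M copy (2, 138 and 71 counts in DMSO siNT, 4OHT siNT and 4OHT siSMARCA4) and an AluSx copy (0, 92 and 58). Neither ERVL copy passed after siSMARCA4 (-0.71 ± 0.31 and -0.30 ± 0.38). The subfamily MLT2A1 as a whole did not rise, as given above. A MER54B copy in an exon of DELEC1 (chr9:114902839-114903617) had 0 counts in DMSO siNT and 160 in 4OHT siNT, at least 49.1-fold higher than the floor, and it held 57.8% of all MER54B counts. DELEC1 itself rose, from 140 counts to 823 (log2 fold change 2.41 ± 0.67, adjusted p = 0.00524, edgeR). An LTR41B copy at chr10:91384034-91384369 went from 4 counts to 373 (log2 fold change 6.12 ± 0.73, adjusted p = 3.90e-06, edgeR).

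Among the falls under 4OHT, the MLT2D copy in an intron of TMEM255B (chr13:113810465-113810837) was at 0.593, 0.636, 0.624, 0.699 and 0.992 CPM in DMSO siNT and at most 0.0434 CPM in any 4OHT library. Its log2 fold change was -4.63 ± 0.43, while TMEM255B was at -0.14 and did not pass. This MLT2D copy entered the test only through DMSO siNT, where it was high. An LTR33 copy (chr9:5574914-5575448) fell from 1.34 to 1.62 CPM in DMSO siNT to 0.0860 to 0.483 CPM in 4OHT siNT (-2.78 ± 0.31). Its level in 4OHT siSMARCA4 was 0.369 to 0.608 CPM, a rise of 1.11 ± 0.31 against 4OHT siNT (adjusted p = 0.0380, edgeR) that was lost in 21 of the alternatives. The others were an LTR41C copy in EIF3C (-2.88), a HERVL-int copy of chromosome 5 (-2.55), a MER21-int copy 651 bp from DLEU2 (-2.42) and an LTR52-int copy in TXNRD3 (-2.08). The LTR41C copy reached at most 0.0753 CPM and the HERVL-int copy at most 0.0868 CPM in any 4OHT siSMARCA4 library. Both entered the test through DMSO siNT, where they were high, so the tests are not independent of that choice. In DMSO siNT the HERVL-int copy was at 0.575 CPM in 1 library, with the next at 0.268. DLEU2 and TXNRD3 fell as well, with log2 fold changes of -2.21 and -1.57, while EIF3C was at 0.23 and did not pass (adjusted p = 0.0988, edgeR).

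After siSMARCA4 in 4OHT, 6 loci rose and 12 fell of 272, where 6.16% of all repeat loci passed. At an unadjusted p under 0.05 there were 64, against 22.9% of all repeat loci. The median log2 fold change was -0.09 for ERVL loci and 0.14 for all repeat loci, and over all repeat loci 568 rose and 234 fell. Of the internal regions 0 rose and 6 fell of 67, and of the LTRs 6 rose and 6 fell of 205. In 1 of the rises and 4 of the falls the libraries did not overlap, where 2.3% of all repeat loci rose and 0.829% fell without overlap. With the scale from repeats the median shifted by -0.16, and 0 rose and 15 fell, against 2.17% and 2.52% of all repeat loci. Without 1 library of 4OHT siNT the 18 calls became 3 (2-1VM), 5 (2-2VM), 6 (4-1VM or 4-2VM), 7 (4-3VM) or 10 (2-3VM). Without 1 of 4OHT siSMARCA4 they became 2 (2-1VM), 3 (2-3VM), 4 (2-3V), 5 (4-2VM), 10 (4-2V) or 20 (4-3V), and without 1 of DMSO siNT they were 13 to 21. Over all repeat loci the 802 calls became 329 to 914 without 1 library.

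Besides both HERVL18-int copies, the falls without overlap were a pair of ERV3-16A3_I internal regions outside genes. The one at chr2:113644208-113645004, 812 bp from RABL2A, was at 0.207 to 0.432 CPM in 4OHT siNT and 0.0392 to 0.113 in 4OHT siSMARCA4 (-1.72 ± 0.42, adjusted p = 0.0245, edgeR). The one at chr9:134496129-134497027 was at 0.208 to 0.430 CPM and 0.0601 to 0.188 CPM (-1.33 ± 0.37, adjusted p = 0.0375). Both had risen under 4OHT, by 1.86 ± 0.46 and 1.80 ± 0.40, in a contrast that uses the same 4OHT siNT libraries. RABL2A was at 0.05 after siSMARCA4 and did not pass. Both rest on few counts, 85 and 90 in 4OHT siNT against 28 and 38 in 4OHT siSMARCA4. They entered the test only through 4OHT siNT, the group where they were high, so the tests are not independent of that choice. The first call was lost in 6 of the alternatives, which were no filterByExpr, siRNA number 2 or number 4 alone, the sparse counts as a covariate, and leaving out 4OHT siSMARCA4 2-1VM or 2-3V, and the second in 14 of the alternatives.

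The remaining loci that fell were chosen after their values were seen, and several sat in genes that fell with them. An MLT2A1 copy in an intron of COL5A1, a fibrillar collagen, had a log2 fold change of -1.34 against -1.16 for the gene. Copies in introns of ALPK2 (-2.61 against -1.37), F3, the tissue factor of coagulation (-1.97 against -0.65), FKBP1A (-1.59 against -0.69) and ARHGAP29 (-1.57 against -0.86) did likewise, and all 5 genes passed. Across introns, 5 of 8 called loci lay in a gene called in the same direction, and 21 of 36 did under 4OHT among loci whose gene was tested. Over all genes tested 10.4% rose and 13.8% fell after siSMARCA4, and 27% rose and 27.4% fell under 4OHT. In exons the counts were 0 of 1 and 1 of 8. The locus and gene log2 fold changes in introns had a Pearson correlation of 0.45 after siSMARCA4 and 0.50 under 4OHT over 107 loci of 94 genes, given as a description since loci share genes and libraries.

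**Figure D4:**
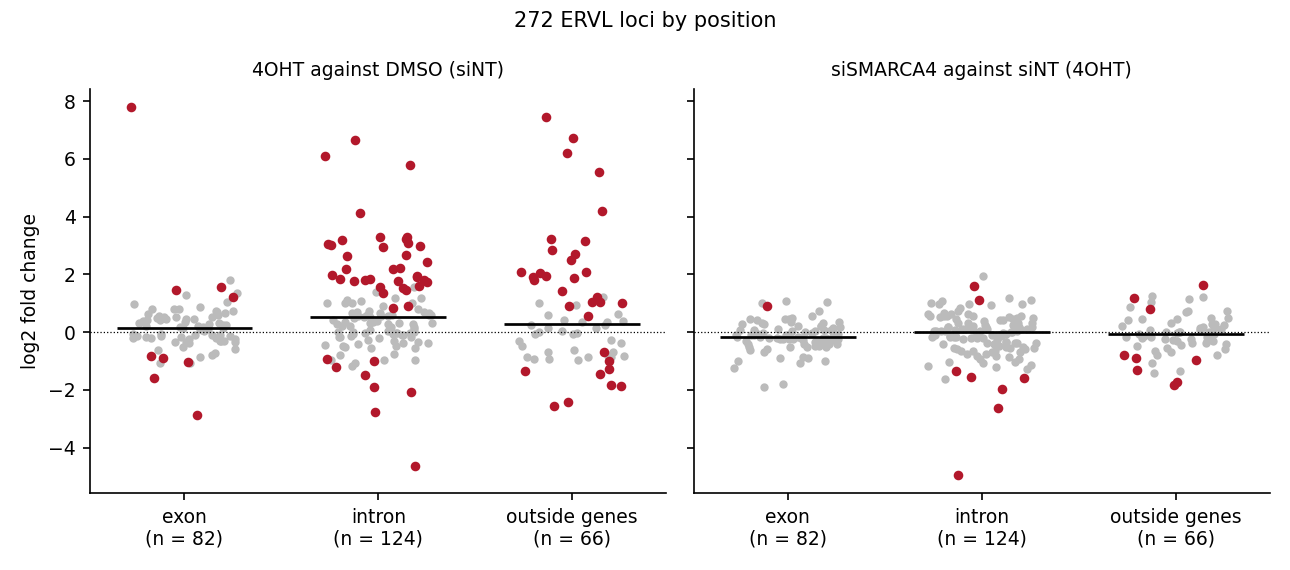
Log2 fold change of the 272 tested ERVL loci by position, in exons (n = 82), introns (n = 124) and outside genes (n = 66), for 4OHT against DMSO in siNT (left) and siSMARCA4 against siNT in 4OHT (right). Red points passed an adjusted p under 0.05, grey points did not, and lines give medians; most red points lie above 0 on the left, and 12 of 18 lie below 0 on the right.

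Against DMSO siNT, 4OHT siSMARCA4 had 59 loci higher and 24 lower, where 30.6% of all repeat loci passed (2956 higher and 1036 lower), with a median of 0.23 (0.34 over all). With the scale from repeats the split was 42 and 42, against 15% and 12.7% of all repeat loci. Other LTR families were compared by the same fit: after siSMARCA4, ERVL-MaLR had 10 rises and 12 falls of 539 loci (median -0.02), ERV1 20 and 11 of 465 (0.12) and ERVK 2 and 0 of 107 (0.13). Under 4OHT the medians were 0.26, 0.24 and -0.07. No test of a difference between families was made.

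The loci with the most counts were mostly in transcripts of genes. After the HERVL18-int copy came a HERVL74-int copy in ITGB1, an integrin subunit, an MLT2B5 copy in RPL23AP7, and an MLT2B3 and a pair of LTR79 copies in exons of CD59, a complement inhibitor. The LTR79 copy at chr11:33707647-33707971 rose under 4OHT (log2 fold change 1.56 ± 0.54, adjusted p = 0.0366, edgeR, lost in 11 of the alternatives), but the one at chr11:33703502-33703818 was at -0.62 ± 0.38 (adjusted p = 0.246) and CD59 at 0.13 (adjusted p = 0.275). An LTR41C copy in an intron of WDR4 (chr21:42844414-42845085) was at -0.10 ± 0.17 under 4OHT and -0.08 ± 0.16 after siSMARCA4, and neither passed. An MLT2B4 copy at chr11:61472712-61473190 was at -0.03 ± 0.14 and 0.43 ± 0.13 (adjusted p = 0.0612, edgeR) and did not pass either. The MLT2B5 copies of chromosomes 22, 21 and 17 were 95.3 to 97.3% identical, so that the split of reads among them is uncertain. Of these, only the copy of chromosome 21 passed under 4OHT (0.57 ± 0.18, adjusted p = 0.0212), and its call was lost in 6 of the alternatives.

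The siRNA numbers gave no call of a difference. For the effect of siSMARCA4 in number 2 minus number 4, edgeR called 0 of 106 ERVL subfamilies (5 at an unadjusted p under 0.05; 0% of all repeat subfamilies passed) and 0 of 272 loci (17 at an unadjusted p under 0.05; 0.00768% of all repeat loci passed). No other tool was run on this contrast.

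Among genes that silence endogenous retroviruses, the largest changes under 4OHT were falls. Of 26 genes, 4 rose and 15 fell with a median log2 fold change of -0.33, against 0.00 over all 19473 genes, 54.4% of which passed. The 4 that fell furthest were CHAF1B, of the chromatin assembly factor, which fell by 3.47 on the log2 scale, HELLS, a remodeller needed for DNA methylation, which fell by 2.58, UHRF1, which guides DNMT1, which fell by 1.499, and DNMT3B, a DNA methyltransferase, which fell by 1.02. CHAF1A, of the same factor as CHAF1B, fell by 0.65, and DNMT1 fell by 0.26. TRIM28 (-0.04) and SETDB1 (0.07), the core of KRAB zinc finger silencing, did not pass, and DAXX (0.57) and MORC2 (0.50) rose. After siSMARCA4, 2 rose and 7 fell (median -0.09, against -0.02 over all genes, 24.2% of which passed). CHAF1B rose by 0.62 and CBX3, a heterochromatin protein, by 0.41. The falls were in DNMT3A (-0.35), RCOR1 (-0.33), KDM1A (-0.30), DNMT1 (-0.27), EHMT1 (-0.26), MORC2 (-0.25) and EHMT2 (-0.24). Whether these genes act on ERVL elements was not tested.

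Of 23 genes of the DUX4 and 8-cell programme, which come on with HERVL in the embryo, only CCNA1 was tested. CCNA1 had 3 counts in DMSO siNT, 273 in 4OHT siNT and 114 in 4OHT siSMARCA4, and it entered the test only through 4OHT libraries. Its log2 fold change was 6.09 ± 0.73 under 4OHT (adjusted p = 9.86e-07, edgeR) and -1.40 ± 0.43 after siSMARCA4 (adjusted p = 0.0253, edgeR). DUX4 and LEUTX were among 6 genes without a count in any library, and ZSCAN4 had 34 counts in all. Among those not tested, RFPL4B had 1, 57 and 38 counts in DMSO siNT, 4OHT siNT and 4OHT siSMARCA4, and RFPL4A had 23, 27 and 7.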

How the data were processed

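RNA of 17 libraries was reverse transcribed with a directional kit after poly(A) enrichment. The authors trimmed reads with Cutadapt 4.7, aligned them to GRCh38 with HISAT2 2.2.1 and counted genes and single repeat loci with TElocal in its mode for reads of many positions, which shares a read among its possible loci, so near-identical copies are the least certain. TElocal was set by the authors to count reads by strand. The deposited values are estimated counts in whole numbers, not normalised, and the repeat entries carry no strand.

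From these counts, loci were summed per subfamily and placed against GENCODE 44 with bedtools 2.31.1. Subfamilies, loci with 10 or more counts over all libraries, and genes were tested with edgeR 4.0.16 (R 4.3.3, quasi-likelihood test, filterByExpr, TMM) over all 17 libraries with 1 term per group. P-values were adjusted by Benjamini-Hochberg over all 1026 repeat subfamilies, 13026 repeat loci or 19473 genes tested, and called under 0.05. CPM are TMM-scaled except for summed ERVL counts, summed markers and sparse counts, which use plain library totals. Fold changes come from these fits. Sums were compared by exact permutation tests over libraries, adjusted by Benjamini-Hochberg over both contrasts of each sum and not across the different sums. Floors were 3 counts over a group, and identities came from blastn 2.17.0. The code was tested on simulated data.

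The members and lists were chosen with earlier results of these data known. The text names 8 subfamilies of HERVL18, HERVL and ERVL, in each of the first 2 contrasts the 5 called subfamilies that rose most and the 5 that fell most, the 10 loci with the most counts, the 6 called loci without overlap that rose or fell most in each, loci with over 50% of the counts of a named subfamily, their host or nearest gene within 100000 bp, the 5 genes most like the HERVL18-int copy of chromosome 1, silencer and DUX4 programme genes, cell type markers and SMARCA4. Same-numbered replicates did not deviate together in every pair of any 2 groups compared, so the numbers were not treated as pairs. Alternatives were other scaling (DESeq2 1.42.0 size factors, TMM from repeats), DESeq2, no filter, 2 groups only, VM or single siRNA numbers only, covariates and leaving out each library. 1 locus that the rule for named loci picks is not reported here.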

Additional observations from a re-analysis of the deposited data

Results flagged for a closer look

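Within the groups, 9 of 147 sets of libraries for the named subfamilies and loci held a library far from the others by Dixon's test, and chance gives about 1 in 20. HERVL-int was at 8.06 CPM in DMSO siNT 2-2V, with the next library at 6.07, and at 10.6 CPM in 4OHT siNT 4-1VM, with the next at 8.79. MLT2A2 was at 1.37 CPM in DMSO siNT 2-2V (next 0.890), and the HERVL-int copy of chromosome 5 was at 0.575 CPM in the same library (next 0.268). That copy was also at 0.0868 CPM in 4OHT siSMARCA4 4-2V (next 0.0200). LTR16D was at 2.29 CPM in 4OHT siSMARCA4 2-3VM (next 1.44). In 4OHT siSMARCA4 4-3V the MLT2B4 copy of chromosome 11 was at 3.07 CPM (next 2.31) and the LTR41C copy in EIF3C at 0.0753 CPM (next 0.0200). The MLT2D copy in TMEM255B was at 0.992 CPM in DMSO siNT 4-3VM (next 0.699). None of these was tested further.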

How the results depend on the processing

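Counts of calls after siSMARCA4 moved most. The 7 subfamilies became 2 with TMM from repeats, 3 with VM libraries, 0 with siRNA number 2, 1 with number 4, 1 with the tag as a covariate and 0 with the sparse counts as a covariate. Over all repeat subfamilies the 209 calls became 28, 110, 12, 66, 59 and 3 in the same fits. The 18 loci became 5 with no filterByExpr, 6 with number 2, 0 with number 4 and 1 with the sparse counts. Over all repeat loci the 802 calls became 389, 124, 7 and 20. Without filterByExpr 159643 repeat loci were tested in place of 13026. With the replicate block, the calls were 4 subfamilies and 7 loci, against 164 and 512 over all repeats. The block changed no other ERVL count by over 1.5 times and kept HERVL18-int at -0.99. No number marks a shared culture in the labels, and correlations of same-numbered deviations between 4OHT siNT and 4OHT siSMARCA4 were -0.02, 0.06 and -0.08, and between DMSO siNT and 4OHT siNT 0.31, -0.16 and 0.55, so the numbers were not shown to pair libraries. For 4OHT against DMSO, 20 subfamilies became 9 with number 2, and 86 loci became 149 with no filterByExpr. Over all repeats, 173 subfamilies became 84 and 3575 loci became 5730 in these fits. For 4OHT siSMARCA4 against DMSO siNT, 29 subfamilies became 12 with TMM from repeats, 19 with VM libraries, 14 with number 2 and 16 with the sparse counts, and 83 loci became 166 with no filterByExpr, 51 with VM libraries and 49 with number 4. Over all repeats, 354 subfamilies became 155, 252, 183 and 234, and 3992 loci became 6972, 2307 and 1963. Without 1 library, the ranges were 1 to 11 subfamilies and 2 to 21 loci after siSMARCA4, 17 to 23 and 72 to 88 for 4OHT against DMSO, and 20 to 40 and 69 to 87 for 4OHT siSMARCA4 against DMSO siNT. HERVL18-int lost its call with number 2 (-0.87, adjusted p = 0.0942) and with the sparse counts (-1.12, adjusted p = 0.136), and ran from -1.13 to -0.86 without 1 library. The difference in summed ERVL counts after siSMARCA4 reversed as a share of repeat counts (-0.222 percentage points, adjusted p = 0.0390, exact permutation test), and that for 4OHT against DMSO reversed with number 2 (-8.13 CPM) but passed as a share (0.277) or outside genes (15.4 CPM). The causes were not tested, beyond the smaller number of libraries in the fits by tag and number. Of 42 called values of named subfamilies and loci, 995 alternative values kept the call, 220 lost it and none reversed, and of 54 not called, 29 values gained it. Depth limits loci to those with counts, and 134917 loci had none.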
